A study of Mus musculus with 12 samples.

Results

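The prostaglandin E2 receptor gene Ptger4 and 7 genes of cyclic AMP signalling around it were followed in a mouse T lymphoma line given dexamethasone, IL-9 or CCL1. The 8 genes were Ptger4, the phosphodiesterase genes Pde7a, Pde4b, Pde4d and Pde3b, the protein kinase A subunit genes Prkaca and Prkar1a, and Crem. As a set they were chosen from these same arrays for the difference between IL-9 and CCL1, matched by Dex and by array number. That difference is therefore given as a description with no test. A gene was measured by each probe set that the platform annotation assigned to that 1 symbol. Of the 8 genes, 6 had a probe set, 14 probe sets in all among 22626, and these stand beside 12393 genes named in the same way. No probe set carried the symbol Pde4d or Pde3b alone, so these genes have no value here and cannot have been chosen by one. Of the 14 probe sets, 11 passed the filter on low signals, which kept 13575, and both probe sets of Pde4b and 1 of Crem did not.

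Total RNA of BW5147, a cultured thymic lymphoma of the mouse, was measured on 12 Affymetrix arrays after 8 h. The 6 groups were Dex with IL-9, Dex with CCL1, Dex alone, IL-9 alone, CCL1 alone and unstimulated cells, each with 2 arrays numbered 1 and 2. Dexamethasone (Dex, a synthetic glucocorticoid) was given at 100 ng/ml, the T cell cytokine IL-9 at 100 U/ml and the chemokine CCL1 at 100 U/ml. All groups are 1 cell line with no genetic change named in the labels. The labels do not say whether the 2 arrays of a group came from separate cultures, so p-values measure only the spread between arrays, which may be technical. For comparisons within or between array numbers, no 2 arrays share Dex, number and ligand. Their p-values rest on how far arrays depart from ligand effects that add to Dex and number. The deposited values were MAS5 signals on a linear scale, and tests and differences use log2(signal + 16), which understates the change of low signals.

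Before the results, 3 facts about the arrays bear on them. The array CCL1 2 was of another array type and was deposited in a table of its own, so it enters the levels and the matched differences but no test, and CCL1 without Dex rests on 1 array in the tests. In the arrays without Dex that are numbered 1, glucocorticoid target genes lay at the level of the Dex arrays. Their mean centred log2 signal was 0.088 to 0.313 in the 6 Dex arrays, 0.098 to 0.214 in the 3 no-Dex arrays numbered 1 and -0.624 to -0.48 in the 3 no-Dex arrays numbered 2. The 8 targets include Klf9 and Zbtb16, which were not kept by the filter. They also include Sgk1, at 225.8 to 310.8 with IL-9 and 33.1 to 70.7 in the other arrays, which raises this mean in the IL-9 arrays. The no-Dex label of these 3 arrays is therefore in doubt, the files do not settle it, and "without Dex" below means as labelled. Dex was also compared within each array number. Of 6 STAT target genes that check the IL-9 label, 5 were kept and 3 passed the test against no ligand (Bcl3, Socs1 and Stat3), while Cish and Pim1 did not. Bcl3 had a signal of 114.2 to 159.3 in the 4 IL-9 arrays and 2.61 to 13.3 in the other 8. Of 11 T cell marker genes, 8 were kept by the filter, among them Ptprc with a median signal of 2670 and Cd3e with 223, whereas Cd2 and Cd5 had medians of 2.39 and 1.20. No B cell or erythroid marker with a probe set was kept, and the highest median of a myeloid or fibroblast marker was 12.7, for Csf1r.

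Prostaglandin E2 acts on T cells through receptors such as EP4, the product of Ptger4, which couples to the stimulatory G protein and so to adenylyl cyclase. The cyclic AMP that is made binds the regulatory subunits of protein kinase A, encoded by genes such as Prkar1a, and frees the catalytic subunits, encoded by genes such as Prkaca. The kinase phosphorylates CREB and related factors at cyclic AMP response elements (CRE), and Crem encodes activators and, from an internal promoter, the repressor ICER. Phosphodiesterases end the signal by breaking cyclic AMP down: those of the PDE4 and PDE7 families are specific for cyclic AMP, and all these enzymes are known from T cells, where cyclic AMP restrains activation through the antigen receptor. CCL1 is the ligand of Ccr8, a chemokine receptor that couples to inhibitory G proteins, and IL-9 acts through Janus kinases and STAT factors.

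The Ptger4 promoter is shown because Ptger4 had the widest difference of these genes. The stretch covers the 250 bases before the start of the gene, at chr15:5244188-5244437 on the minus strand of GRCm38.p6, from RefSeq.
Ptger4 promoter: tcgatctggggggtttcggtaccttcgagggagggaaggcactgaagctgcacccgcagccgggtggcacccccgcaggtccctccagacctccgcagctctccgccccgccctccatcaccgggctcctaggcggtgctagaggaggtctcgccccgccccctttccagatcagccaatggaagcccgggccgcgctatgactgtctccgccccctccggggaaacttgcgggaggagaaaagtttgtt
None of 5 motifs searched on both strands was found in this window, which says only that those letters are not there. The motifs were the STAT motif TTCNNNGAA, the CRE TGACGTCA, its core TGACG, the AP-1 motif TGANTCA and a glucocorticoid response element of the inverted-repeat kind. In 32851 windows of the same length from 27025 genes, they were present in 7.02%, 1.55%, 17.8%, 6.75% and 0.387%, in that order, with each CRE also counted as a core. Promoter windows were matched for 5 of the 8 genes, 14 windows in all. A full CRE was found in 1 window, that of a start of Prkar1a, 49 to 42 bases before it. The 30 bases around it, at chr11:109650889-109650918 on the plus strand of GRCm38.p6 from RefSeq, are shown with the CRE in capitals.
Prkar1a CRE: gcgaggcgcatTGACGTCAgcagccgaacg
A STAT motif lay in 1 of the 4 windows of Pde4b, and CRE cores lay in windows of Pde4b, Prkaca and Prkar1a.

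Ptger4 held 3 separate levels by ligand, each shared by arrays labelled with and without Dex: it was highest with IL-9, intermediate without a ligand and lowest with CCL1. Probe set 1424208_at had signals of 465.8 and 441.4 with Dex and IL-9, 161.6 and 144.5 with Dex and CCL1, and 230.1 and 248.3 with Dex alone. Without Dex the signals were 476.7 and 422.8 with IL-9, 151.9 and 173.9 with CCL1, the second of these from the other array type, and 271.5 and 245.8 in unstimulated cells. The 4 IL-9 arrays thus lay between 422.8 and 476.7, the 4 CCL1 arrays between 144.5 and 173.9, and the 4 arrays without a ligand between 230.1 and 271.5, with no overlap among the 3 sets. In order, the group means were 453.6 ± 17.3 with Dex and IL-9, 449.8 ± 38.1 with IL-9, 258.7 ± 18.2 unstimulated, 239.2 ± 12.9 with Dex, 162.9 ± 15.6 with CCL1 and 153.1 ± 12.1 with Dex and CCL1 (SD, n = 2 each). Neighbours in this order that differ only by Dex overlapped in their arrays, and neighbours that differ by ligand did not. In the arrays numbered 2, where the glucocorticoid targets did separate Dex from no Dex, the signals with and without Dex were 441.4 and 422.8 for IL-9, 144.5 and 173.9 for CCL1 (the second on the other array type), and 248.3 and 245.8 for no ligand. In these bulk extracts, a change in the share of cells that carry a transcript and a change in its amount per cell cannot be told apart.

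The matched differences of this probe set, IL-9 minus CCL1, were 1.44 and 1.51 log2 with Dex in the arrays numbered 1 and 2, and 1.55 and 1.21 log2 without Dex. Their mean was 1.43 log2 (SD 0.15 over 4 pairs), a 2.69-fold higher value on the log2(signal + 16) scale, and rank 12 by size among the 13575 kept probe sets. Over all kept probe sets the median of the mean matched difference was 0.0023 log2, and the median of its absolute value was 0.102 log2.

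The other Ptger4 probe set, 1421073_a_at, showed the same order at lower signals, which cannot be set against those of the first because the probes differ. It had signals of 52.4 and 35.1 with Dex and IL-9, 20.5 and 15.8 with Dex and CCL1, and 26.0 and 24.9 with Dex alone. Without Dex it had 43.8 and 41.8 with IL-9, 12.4 and 10.8 with CCL1, and 24.4 and 18.025 in unstimulated cells. The IL-9 arrays again lay above all others, while the CCL1 arrays overlapped the arrays without a ligand through Dex with CCL1 1. Its mean matched difference was 0.94 log2 (SD 0.19, 4 of 4 pairs positive), a 1.92-fold higher value with IL-9 on the log2(signal + 16) scale. With 1 added to the signal in place of 16, this mean was 1.50 log2, against 1.51 log2 for 1424208_at. Across the 11 arrays of the larger table the 2 probe sets correlated with r = 0.932 (Spearman's rho 0.891), a description of arrays that fall into sets by ligand.

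**Figure D1:**
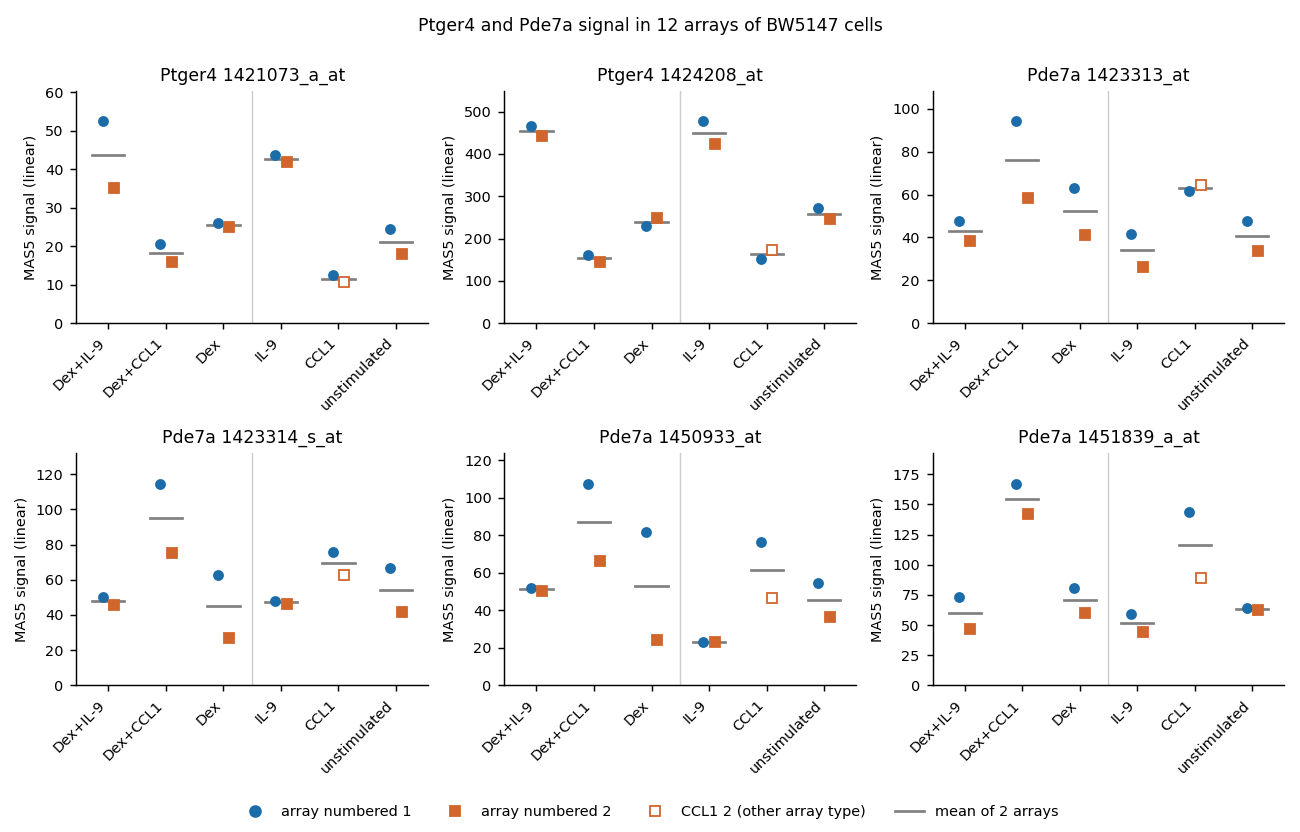
Linear MAS5 signal of the 2 Ptger4 and 4 Pde7a probe sets by group, with circles for arrays numbered 1, squares for arrays numbered 2, an open square for CCL1 2 of the other array type, and a line for the mean of 2 arrays. Ptger4 1424208_at lies at 422.8 to 476.7 with IL-9, 144.5 to 173.9 with CCL1 and 230.1 to 271.5 without a ligand, and each Pde7a probe set has its highest group mean in Dex with CCL1.

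Pde7a, which encodes a phosphodiesterase specific for cyclic AMP, had the opposite order: its signal was lower with IL-9 than with CCL1 in all 4 matched pairs of each of its 4 probe sets. Probe set 1451839_a_at, the one with the highest mean, had signals of 73.2 and 46.4 with Dex and IL-9, 167.3 and 142.0 with Dex and CCL1, and 80.7 and 60.4 with Dex alone. Without Dex it had 58.9 and 44.7 with IL-9, 143.9 and 89.3 with CCL1, and 64.4 and 62.2 in unstimulated cells. All 4 CCL1 arrays lay above all 8 others, and the lowest of them was CCL1 2 of the other array type. In order, the group means were 154.6 ± 17.9 with Dex and CCL1, 116.6 ± 38.6 with CCL1, 70.5 ± 14.4 with Dex, 63.3 ± 1.56 unstimulated, 59.8 ± 18.9 with Dex and IL-9 and 51.8 ± 10.1 with IL-9 (SD, n = 2 each). From Dex alone downwards each neighbour overlapped the next. Against no ligand, IL-9 was lower in all 4 pairs matched by Dex and number, with differences of -0.12 and -0.29 log2 with Dex and -0.10 and -0.37 log2 without Dex, and IL-9 alone lay below every array without a ligand. The matched differences, IL-9 minus CCL1, were -1.04 and -1.34 log2 with Dex and -1.09 and -0.80 log2 without Dex, with a mean of -1.07 (SD 0.22), which is 0.477-fold on the log2(signal + 16) scale and rank 28 by size.

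The other 3 Pde7a probe sets had smaller differences and more spread between arrays. Probe set 1423313_at had signals of 47.7 and 38.2 with Dex and IL-9, 94.1 and 58.5 with Dex and CCL1, 62.9 and 41.3 with Dex, 41.8 and 26.2 with IL-9, 61.8 and 64.3 with CCL1, and 47.9 and 33.6 unstimulated. Probe set 1423314_s_at had 50.1 and 45.7 with Dex and IL-9, 114.6 and 75.3 with Dex and CCL1, 62.8 and 27.1 with Dex, 48.0 and 46.2 with IL-9, 76.0 and 62.5 with CCL1, and 66.5 and 41.6 unstimulated. In both, the 4 IL-9 arrays lay below the 4 CCL1 arrays, and the CCL1 arrays overlapped those without a ligand. Probe set 1450933_at had 52.0 and 50.3 with Dex and IL-9, 107.6 and 66.2 with Dex and CCL1, 82.0 and 24.0 with Dex, 23.1 and 23.3 with IL-9, 76.6 and 46.5 with CCL1, and 54.7 and 36.7 unstimulated. Here the IL-9 and CCL1 arrays overlapped, and the Dex 2 array was low, as it was in 1423314_s_at. The mean matched differences, IL-9 minus CCL1, were -0.65 log2 (SD 0.25) for 1423313_at, -0.60 (SD 0.27) for 1423314_s_at and -0.77 (SD 0.39) for 1450933_at. Between pairs of the 4 Pde7a probe sets, r over 11 arrays was 0.781 to 0.876.

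The remaining phosphodiesterase gene with probe sets, Pde4b, encodes a PDE4 enzyme and was near the bottom of the signal range. Its signals were 0.223 to 7.11 in probe set 1422473_at and 0.188 to 4.99 in 1422474_at over the 12 arrays. The highest value of 1422473_at was in Dex with IL-9 2, and all its other arrays lay below 2. The filter on low signals lay at 6.32, and no order of groups is read from values under it.

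The protein kinase A subunit genes were measured well above the filter, and their IL-9 arrays overlapped their CCL1 arrays. Prkaca, which encodes a catalytic subunit, had signals of 65.0 and 63.8 with Dex and IL-9, 82.4 and 96.6 with Dex and CCL1, and 52.6 and 86.8 with Dex alone. Without Dex it had 72.1 and 88.9 with IL-9, 66.3 and 91.4 with CCL1, and 84.5 and 73.0 in unstimulated cells. Dex with IL-9 lay below Dex with CCL1 in both pairs, but the groups without Dex overlapped, and the mean matched difference was -0.18 log2 (SD 0.26, 1 of 4 pairs positive).

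Prkar1a, which encodes a regulatory subunit, had high signals with little spread. Probe set 1425550_a_at had 1032.5 and 984.0 with Dex and IL-9, 910.1 and 918.6 with Dex and CCL1, and 825.0 and 978.6 with Dex alone. Without Dex it had 946.2 and 967.4 with IL-9, 997.9 and 983.9 with CCL1, and 797.3 and 804.5 in unstimulated cells, which were the lowest 2 arrays. Its mean matched difference was 0.04 log2 (SD 0.12). Probe set 1452032_at ranged over 532.9 to 699.6 in the 12 arrays, with a mean matched difference of -0.085 log2 (SD 0.22). Neither probe set separated IL-9 from CCL1.

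Crem had low signals in every probe set. Probe set 1449037_at had 24.1 and 24.8 with Dex and IL-9, 23.6 and 17.3 with Dex and CCL1, and 15.1 and 14.3 with Dex alone. Without Dex it had 25.3 and 11.03 with IL-9, 20.1 and 4.60 with CCL1, and 14.2 and 10.3 in unstimulated cells, so that within each no-Dex group the array numbered 1 was the higher. All 4 matched differences were positive, with a mean of 0.22 log2 (SD 0.16), and the IL-9 and CCL1 arrays overlapped. The widest, 0.39 log2, was the pair with CCL1 2 of the other array type. In the fit without CCL1 2, IL-9 minus CCL1 was 0.02 log2 (SE 0.18). It ran over -0.13 to 0.18 log2 with 1 array left out. Probe set 1418322_at ranged over 5.58 to 16.7 with a mean matched difference of 0.13 log2 (SD 0.22), and 1430598_at over 2.16 to 9.58 without passing the filter.

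**Figure D2:**
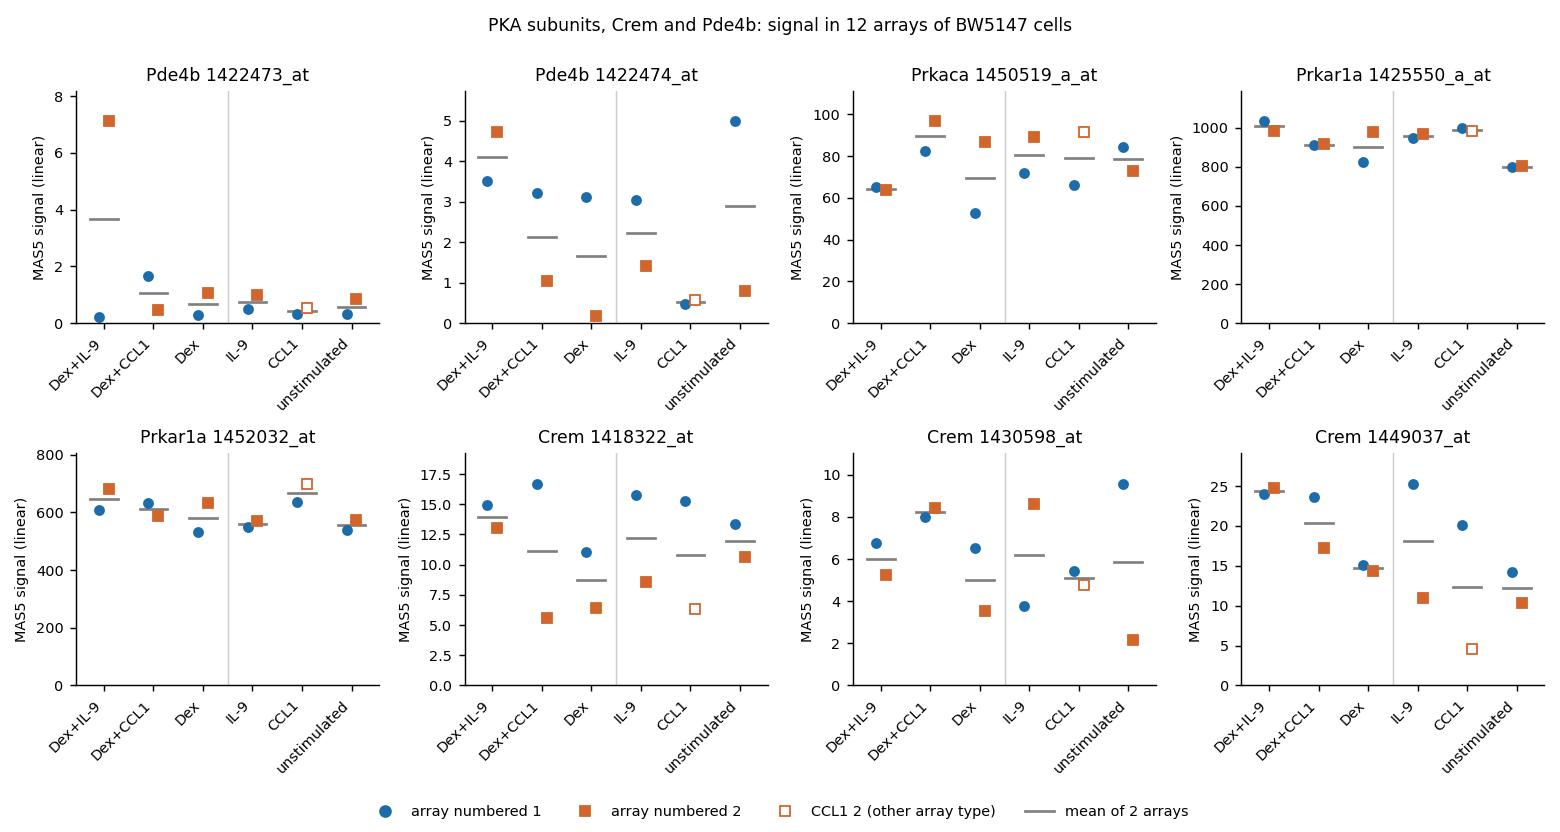
Linear MAS5 signal of the Pde4b, Prkaca, Prkar1a and Crem probe sets by group, with the symbols of the Ptger4 and Pde7a plot and an axis for each probe set. Prkar1a 1425550_a_at stays between 797.3 and 1032.5, the Pde4b probe sets stay at or below 7.11, and no probe set separates the IL-9 arrays from the CCL1 arrays.

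Over the 11 kept probe sets, 7 had the same sign in all 4 matched pairs: 2 of Ptger4 and 1 of Crem were positive and 4 of Pde7a were negative. Among all kept probe sets, 10.1% were positive in all 4 pairs and 9.44% were negative in all 4. Both Ptger4 probe sets had all IL-9 arrays above all CCL1 arrays, as did 2.51% of kept probe sets, and 3 of the 4 Pde7a probe sets had all of them below, as did 2.56%. The genes were chosen on this difference, so nothing is read from these shares. The median of the mean matched difference was -0.085 log2 over the 11 probe sets, against 0.0023 over all kept ones.

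**Figure D3:**
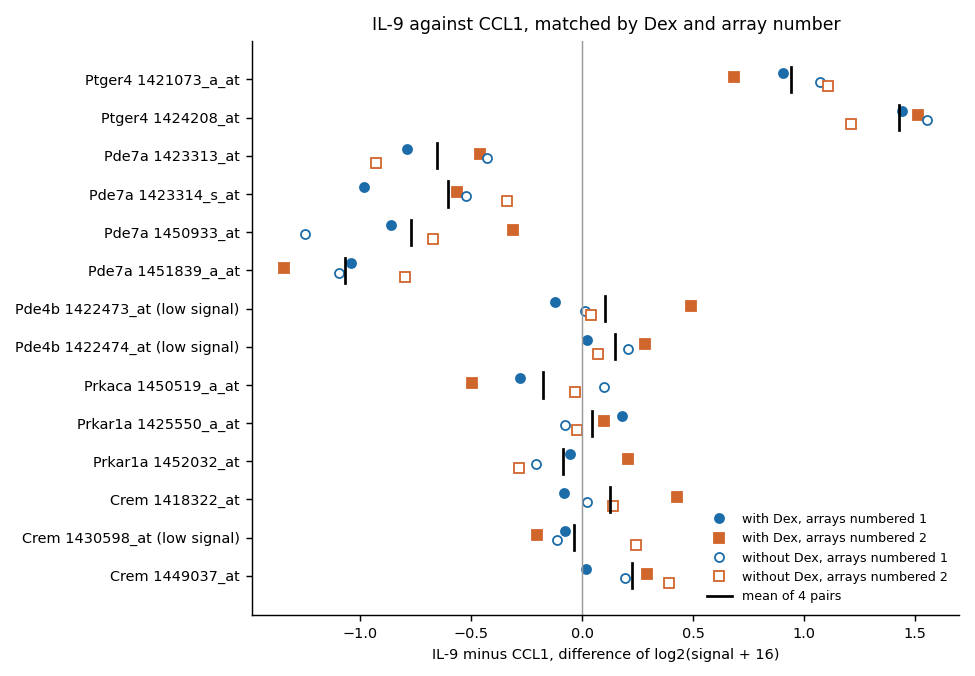
Difference in log2(signal + 16), IL-9 minus CCL1, for each probe set in the 4 pairs of arrays with the same Dex condition and number, with a bar at the mean of the pairs. Filled symbols are pairs with Dex, open symbols pairs without Dex, circles number 1 and squares number 2; both Ptger4 probe sets lie to the right of 0 and all 4 Pde7a probe sets to the left in every pair.

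Set against the arrays without a ligand, Ptger4 differed in both directions and Pde7a mainly with CCL1. These 2 comparisons share the 4 arrays without a ligand, so the values are given side by side, and they share the IL-9 or CCL1 arrays with the choice of genes, so they carry no test. For Ptger4 1424208_at the fitted difference over 11 arrays was 0.82 log2 (SE 0.11) for IL-9 against no ligand and -0.65 log2 (SE 0.12) for CCL1 against no ligand. For Ptger4 1421073_a_at these were 0.59 log2 (SE 0.15) and -0.33 log2 (SE 0.16). For Pde7a 1451839_a_at they were -0.22 log2 (SE 0.16) with IL-9 and 1.00 log2 (SE 0.17) with CCL1, and the CCL1 value was rank 10 by size of 13575. That fit leaves out CCL1 2. Pair by pair, CCL1 against no ligand was 0.92 and 1.05 log2 with Dex, and without Dex 0.99 log2 for CCL1 1 and 0.43 log2 for CCL1 2.

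The other Pde7a probe sets lay on the same side with CCL1, at 0.45 log2 (SE 0.21) in 1423313_at, 0.66 log2 (SE 0.23) in 1423314_s_at and 0.64 log2 (SE 0.28) in 1450933_at. With IL-9 they were at -0.19 log2 (SE 0.19), 0.0029 log2 (SE 0.21) and -0.27 log2 (SE 0.25) in the same order. The low Dex 2 array bears on these values: for 1450933_at, CCL1 against no ligand was 0.32 log2 without Dex 2 and 0.97 log2 without Dex 1, and IL-9 against no ligand was -0.59 log2 without Dex 2 and 0.05 log2 without Dex 1. For 1423314_s_at, IL-9 against no ligand was -0.21 log2 without Dex 2 and 0.22 log2 without Dex 1. For Ptger4 1424208_at, leaving out 1 array at a time gave 0.78 to 0.86 log2 for IL-9 and -0.69 to -0.62 log2 for CCL1.

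In the 12 arrays, both Ptger4 probe sets had every IL-9 array above every array without a ligand, as did 2.5% of kept probe sets, and 1424208_at had every CCL1 array below them, as did 3.01%. Of the Pde7a probe sets, 1451839_a_at had every CCL1 array above them, as did 1.98%, and none had every IL-9 array below them, as did 3.78%. Prkar1a 1425550_a_at was at 0.21 log2 (SE 0.10) with IL-9 and 0.17 log2 (SE 0.11) with CCL1, so its 2 ligand values lay within their errors of each other. Crem 1449037_at was at 0.32 log2 (SE 0.16) with IL-9, running over 0.17 to 0.47 log2 with 1 array left out, and at 0.30 log2 (SE 0.18) with CCL1, which was 0.096 log2 with CCL1 2 added. Crem 1418322_at was at 0.14 log2 with IL-9 (0.05 to 0.23 log2 with 1 array left out) and 0.14 log2 with CCL1 (-0.01 to 0.29 log2). Prkaca was at -0.02 log2 (SE 0.15) and 0.06 log2 (SE 0.17), both of which changed sign with 1 array left out.

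The IL-9 against CCL1 difference that chose these genes did not use the contrast of Dex, so the genes were tested here. Genes and comparisons were still chosen with earlier results of these data known. Averaged over ligands, Dex against no Dex called 0% of the 13575 kept probe sets at an adjusted p under 0.05 (limma, Benjamini-Hochberg), with 208 at an unadjusted p under 0.05, and none of the 11 member probe sets. Their differences ran over -0.11 to 0.31 log2, all with an adjusted p of 0.9999 in limma. Ptger4 1424208_at was at -0.03 log2 (SE 0.09) and Pde7a 1451839_a_at at 0.12 log2 (SE 0.14). Because of the high glucocorticoid target genes in the no-Dex arrays numbered 1, this average mixes arrays that differ in that respect.

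Within the arrays numbered 2, where the glucocorticoid targets did separate Dex from no Dex, limma called 0.597% of kept probe sets. Of these, 69 were higher (0.508%) and 12 lower (0.0884%) with Dex. Again 0 of the 11 member probe sets were called, and none had an unadjusted p under 0.05. Over all kept probe sets, 1423 of 13575 had an unadjusted p under 0.05. Ptger4 1424208_at was at 0.02 log2 (SE 0.12, adjusted p = 0.9617 in limma) and Ptger4 1421073_a_at at 0.08 log2 (SE 0.17). Pde7a ran over -0.16 to 0.27 log2 in its 4 probe sets. The low Dex 2 array bears on these values: 1450933_at was at 0.17 log2, but at 0.56 without Dex 2 and -0.23 without Dex with IL-9 2. Likewise 1423314_s_at was at -0.16 log2 and at 0.08 without Dex 2. With 1 array left out, 1423313_at stayed at 0.21 to 0.30 log2 and 1451839_a_at ran over -0.05 to 0.14. The largest member value was that of Crem 1449037_at, at 0.36 log2 (SE 0.17, adjusted p = 0.502 in limma), with a higher signal in the Dex array of each of the 3 ligand conditions numbered 2 when CCL1 2 is included.

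Within the arrays numbered 1, limma called 0% of kept probe sets, with 339 at an unadjusted p under 0.05. None of the members was called, and 2 of the 11 had an unadjusted p under 0.05, both of Pde7a. Pde7a 1450933_at was at 0.56 log2 (SE 0.24, adjusted p = 0.9998 in limma) and 1423313_at at 0.32 log2 (SE 0.13, adjusted p = 0.9998), and the other 2 Pde7a probe sets were at 0.16 and 0.24 log2. The Dex difference in number 2 minus that in number 1 was called in 0.206% of kept probe sets and in none of the members, whose values ran over -0.39 log2 in Pde7a 1450933_at to 0.32 log2 in Crem 1449037_at.

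The no-Dex arrays numbered 1 were also set against those numbered 2, to see whether the members follow the difference seen in the glucocorticoid targets. Limma called 0.796% of kept probe sets, 85 higher (0.626%) and 23 lower (0.169%) in number 1. Over all kept probe sets, 1245 of 13575 had an unadjusted p under 0.05. None of the members was called, and 2 member probe sets had an unadjusted p under 0.05. These were Crem 1449037_at at 0.40 log2 (SE 0.17, adjusted p = 0.4978 in limma) and Pde7a 1423313_at at 0.37 log2 (SE 0.15, adjusted p = 0.4608). Ptger4 1424208_at was at 0.12 log2 (SE 0.12). A miss of the threshold does not show that these genes were alike in the 2 sets.

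The IL-9 against CCL1 difference with Dex, minus that without Dex (the interaction of ligand and Dex), is built from the values that chose the genes and is given for them with no test. It was 0.0053 log2 (SE 0.24) for Ptger4 1424208_at and 0.06 log2 (SE 0.35) for Pde7a 1451839_a_at. Prkaca had -0.61 log2 (SE 0.34), its signal being lower with IL-9 than with CCL1 in both pairs with Dex. CCL1 without Dex is here the array CCL1 1 alone, 1 of the 3 whose glucocorticoid targets lay at the level of the Dex arrays (0.098, against 0.088 and 0.129 with Dex and CCL1). Over all kept probe sets limma called 0%, with 296 at an unadjusted p under 0.05.

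**Figure D4:**
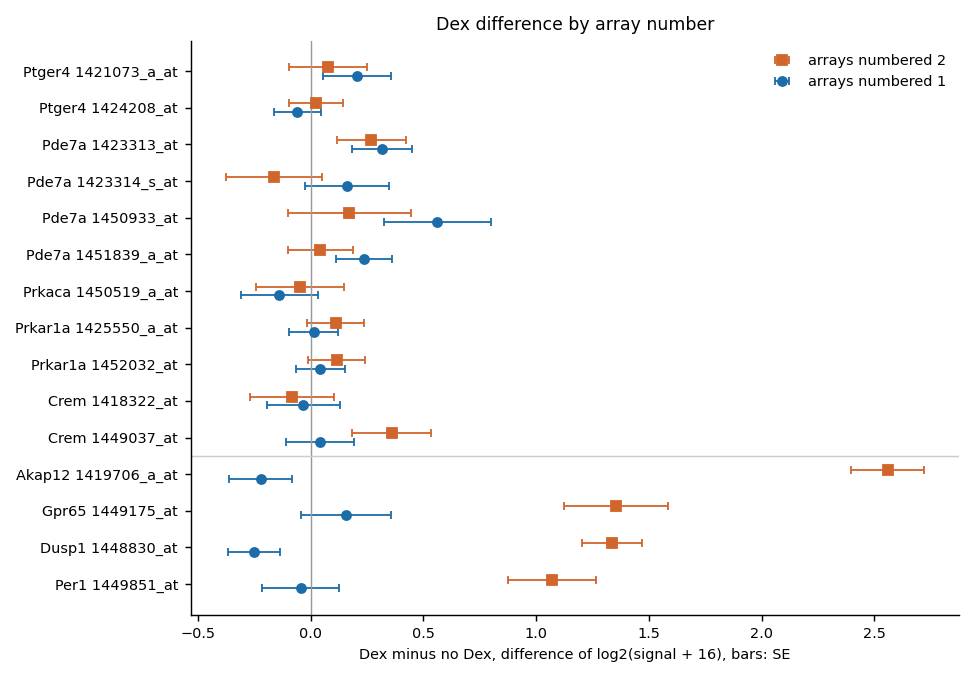
Difference in log2(signal + 16), Dex minus no Dex, within the arrays numbered 2 (squares) and numbered 1 (circles), with bars for the SE of the model, for the 11 kept member probe sets above the line and 4 other genes of the pathway below it. Member values lie between -0.16 and 0.56 log2, while Akap12, Gpr65, Dusp1 and Per1 lie between 1.07 and 2.56 log2 in the arrays numbered 2.

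The wider pathway was covered by 100 further genes in 10 lists, from receptors to CREB target genes, of which 41 had a kept probe set, taken as 1 per gene. For Dex within the arrays numbered 2, limma called 4 of the 41 higher and 0 lower, 9.76% against 0.597% of all kept probe sets, and the median difference was 0.05 log2 against -0.01 over all tested. The 4 were Akap12, which encodes an anchoring protein for protein kinase A, Gpr65, a proton-sensing receptor coupled to the stimulatory G protein, Dusp1, a MAP kinase phosphatase, and the clock gene Per1. Dusp1 and Per1 are also known glucocorticoid targets and stand in the list used to check the Dex labels. Arrays were split by number because such targets were already seen high in the no-Dex arrays numbered 1. The gene lists too were chosen with earlier results known, and 1 probe set per gene is set against all kept ones. Nothing is therefore read from the higher share.

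Akap12 had signals of 168.1 and 155.5 with Dex and IL-9, 148.5 and 170.1 with Dex and CCL1, 195.0 and 140.1 with Dex, 180.5 and 10.7 with IL-9, 182.3 and 13.1 with CCL1, and 244.2 and 16.8 unstimulated. The 3 no-Dex arrays numbered 2 stood apart from the other 9. With Dex in number 2 it rose by 2.56 log2 (SE 0.16, adjusted p = 1.572e-05 in limma), and it was 2.90 log2 higher in the no-Dex arrays numbered 1 than in those numbered 2 (adjusted p = 3.722e-06 in limma). Gpr65 had 360.7 and 263.7 with Dex and IL-9, 570.1 and 411.5 with Dex and CCL1, 493.4 and 181.9 with Dex, 312.7 and 62.9 with IL-9, 479.9 and 80.4 with CCL1, and 480.7 and 109.3 unstimulated. In every group its array numbered 1 was the higher, and with Dex in number 2 it rose by 1.35 log2 (SE 0.23, adjusted p = 0.02405 in limma). Dusp1 rose by 1.34 log2 (adjusted p = 0.0004181) and Per1 by 1.07 log2 (adjusted p = 0.03341 in limma).

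Between the no-Dex arrays numbered 1 and 2, limma called 3 of the 41 higher in number 1 and 0 lower, 7.32% against 0.796% of all kept probe sets: Akap12, Gpr65 at 1.95 log2 (adjusted p = 0.001235) and Dusp1 at 1.75 log2 (adjusted p = 5.747e-05). The choice of this split bears on that share too, and nothing is read from it. For Dex averaged over ligands and for the interaction none of the 41 was called or reached an unadjusted p under 0.05.

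For IL-9 against CCL1, limma called 0.236% of kept probe sets and 0 of the 41 other pathway genes. An unadjusted p under 0.05 was reached by 6 of the 41, and by 627 of the 13575 kept probe sets. The median difference of the 41 was -0.06 log2, against 0.01 over all tested. In this fit CCL1 without Dex was CCL1 1 alone, while IL-9 without Dex had both numbers. A difference between array numbers therefore enters these values. The 4 widest differences were those of Nr4a1, Rgs2 and Fos among the CREB target genes and of the receptor gene Gpr65. Nr4a1, an orphan nuclear receptor gene, was at -1.50 log2 (SE 0.29, adjusted p = 0.09021 in limma), Rgs2, a regulator of G protein signalling, at -1.12 log2 (adjusted p = 0.5434) and Fos, an AP-1 subunit, at 0.94 log2 (SE 0.22, adjusted p = 0.1971). Nr4a1 had signals of 27.9 and 15.8 with Dex and IL-9, 84.7 and 84.7 with Dex and CCL1, 38.6 and 18.9 with Dex, 29.0 and 11.04 with IL-9, 87.1 and 8.49 with CCL1, and 34.1 and 7.21 unstimulated. It was high with CCL1 in 3 of 4 arrays, and low in CCL1 2 of the other array type, beside the other no-Dex arrays numbered 2. Without Dex, Rgs2 had 21.1 and 14.5 with IL-9 and 69.8 and 15.6 with CCL1, so its arrays numbered 2 were close. With Dex, Rgs2 had 17.5 and 13.3 with IL-9 and 57.4 and 30.1 with CCL1.

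Of the receptors, Gpr65 was at -1.12 log2 (SE 0.54, adjusted p = 0.9995 in limma) and Ptgir, the prostacyclin receptor gene, at -0.37 log2 (SE 0.15). The other prostaglandin E2 receptor genes, Ptger1, Ptger2 and Ptger3, were not kept, with signals of at most 14.1, in Dex with CCL1 2 for Ptger2. Of the other phosphodiesterase genes, 4 of 14 were kept, and Pde10a had the widest difference at 0.48 log2 (SE 0.18, adjusted p = 0.834 in limma). The 3 kept adenylyl cyclase genes were Adcy3 at 0.18 log2, Adcy6 at -0.27 log2 and Adcy7 at -0.26 log2. Of the 6 kept G protein subunit genes, Gnai2 was at 0.38 log2 and Gng2 at -0.36 log2, and Gnas, which encodes the stimulatory alpha subunit, was at -0.03 log2. Among the 6 kept anchoring protein genes Akap12 was at -0.72 log2 (SE 0.70) and Akap9 at 0.62 log2 (SE 0.37). With CCL1 2 included, Akap12 without Dex had 180.5 and 10.7 with IL-9 and 182.3 and 13.1 with CCL1. With Dex it had 168.1 and 155.5 against 148.5 and 170.1, so no matched pair differed as widely as the fitted value. The 4 other kept subunits and inhibitors of protein kinase A ran over -0.09 log2 in Prkacb to 0.21 log2 in Prkar1b. The 3 kept genes of the cyclic AMP sensors and RAP1 ran over -0.23 log2 in Rapgef3 to -0.04 log2 in Rap1a, and the 4 CREB factors and coactivators over -0.22 log2 in Creb1 to 0.08 log2 in Crebbp. Of 8 genes of prostaglandin E2 synthesis and breakdown only Ptges2 was kept, at 0.16 log2 (SE 0.16).

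Against no ligand, 0 of the 41 passed in either direction with IL-9, where limma called 0.0958% of kept probe sets (0.0663% higher and 0.0295% lower), or with CCL1, where it called 0.00737%. At an unadjusted p under 0.05 there were 7 of the 41 with IL-9 and 2 with CCL1. Over all 13575 kept probe sets there were 1164 with IL-9 and 760 with CCL1. Fos was at 1.13 log2 (SE 0.20, adjusted p = 0.07675 in limma) with IL-9, and Nr4a1 at 1.40 log2 (adjusted p = 0.3608) with CCL1. Among the adenylyl cyclase genes, Adcy6 was at -0.47 log2 (adjusted p = 0.4233) and Adcy7 at -0.36 log2 (adjusted p = 0.4531 in limma) with IL-9. The CCL1 values rest on CCL1 1 alone without Dex, so a difference between array numbers enters them too.

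The genes whose log2 signal was most like that of a member over the 11 arrays were taken from 7507 genes with 1 probe set each. The arrays share their ligand and number, and the coefficients describe these arrays only. For Ptger4 1424208_at they were Socs1 (r = 0.95, rho 0.873), Zfp36 (r = 0.93, rho 0.909), Tspan5 (r = 0.925, rho 0.845), Gzma (r = 0.918, rho 0.827) and Osbpl9 (r = 0.892, rho 0.90). Socs1, a suppressor of cytokine signalling and a STAT target, had signals of 104.1 and 108.2 with Dex and IL-9, 15.1 and 7.12 with Dex and CCL1, 37.8 and 26.1 with Dex, 86.2 and 68.1 with IL-9, 23.5 and 23.6 with CCL1, and 29.7 and 31.8 unstimulated. Like Ptger4 it held its highest values with IL-9 and its lowest with CCL1. For Pde7a 1451839_a_at the 3 most alike genes were Pip4k2a (r = 0.956, rho 0.90), Prkd2 (r = 0.943, rho 0.855) and Stk39 (r = 0.941, rho 0.964).

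For Prkaca the 3 most alike genes were Uox (r = 0.892), Arfip2 (r = 0.89) and Mta1 (r = 0.875), and for Prkar1a 1425550_a_at they were Nip7 (r = 0.919), Mrpl3 (r = 0.889) and Get4 (r = 0.888). For Crem 1449037_at they were Cdk11b (r = 0.931), Frmd4b (r = 0.888) and Stk17b (r = 0.878). Frmd4b shared with Crem a higher signal in the array numbered 1 of each no-Dex group, at 31.0 and 3.09 with IL-9, 31.4 and 4.93 with CCL1, and 10.4 and 0.188 unstimulated.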

How the data were processed

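Total RNA of 12 arrays was measured on 2 Affymetrix array types, 11 arrays in the larger table and CCL1 2 in the other. The deposited values are intensities, signals of the MAS5 algorithm on a linear scale, per the submitters' processing notes. Neither its version nor the scaling target was given in the sources used here. Trimmed by 2% at each end, the mean signal per array was 99.1 to 99.4, so such scaling would hide a shift shared by every gene.

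Signals were transformed as log2(signal + 16) after removal of 64 control probe sets. Probe sets with a mean above the 40th percentile (signal 6.32) were kept. The platform annotation gave 1 symbol to 20380 of the 22626 probe sets, several to 691 and none to 1555. Limma 3.58.1 in R 4.3.3 was fitted to the 11 arrays with an intensity trend, and p-values were adjusted over 13575 probe sets (Benjamini-Hochberg, threshold 0.05). The model with 1 mean per group left 5 residual degrees of freedom beside 6.47 prior ones. Dex within a number, and number 1 against 2, came from a model with 4 means (Dex by number) plus IL-9 and CCL1 terms, which left 5 beside 6.96. That second model holds no 2 arrays alike in Dex, number and ligand. Its residual spread is thus the departure from additive ligand terms, which would include any interaction of ligand and Dex. In the model with 1 mean per group, all groups pooled their spread, and CCL1 without Dex, a lone array, borrowed it. Precision is limited by the number of arrays.

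The members, gene lists and comparisons were chosen with earlier results of these data known, and the motifs, the CRE stretch and the Dex comparisons within number 1 and between numbers were chosen after the data were seen. All probe sets of a member are given. Of the other pathway lists, genes past the threshold and up to 2 per list with the widest difference qualified for naming. Adcy3, Gnas, Prkacb, Rap1a and Crebbp were named after their values were seen. The most alike genes were the 5 with the highest Pearson r for Ptger4 and the 3 highest for each other member. RefSeq promoter windows of GRCm38.p6 were searched for motifs in Python. In the groups other than CCL1, the arrays of 1 group differed by a median of 0.168 to 0.258 log2, so they were not copies of each other. Arrays of different groups, and those of CCL1, were not compared in this way.

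Tested on simulated data with 200 of 13575 probe sets changed, the fit for Dex in number 2 found 52.0% of those set at 1 log2 and 97.0% of those set at 2 log2. For Dex averaged over ligands the shares were 89.0% and 100.0%, and for the interaction 5.00% and 59.0%. In the data themselves, Akap12 was at 2.56 log2 with Dex in number 2 but at 0.70 log2 (SE 0.55) averaged over ligands. The high shares of the averaged fit thus do not carry over to genes that differ between the no-Dex arrays of the 2 numbers. Alternatives were pseudocounts of 1 and 64, other filters and normalizations, no intensity trend, 1 probe set per gene, CCL1 2 added, the number as a block and each array left out.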

Additional observations from a re-analysis of the deposited data

Results flagged for a closer look

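The Dex difference of 2 pathway genes other than the members differed between array numbers when that difference was tested. For Akap12 the Dex difference in the arrays numbered 2 exceeded that in the arrays numbered 1 by 2.7816 log2 (SE 0.21, adjusted p = 0.0001463 in limma). For Dusp1 it did so by 1.5898 log2 (SE 0.18, adjusted p = 0.001806 in limma). Gpr65, at 1.20 log2 (adjusted p = 0.2308), and Per1, at 1.11 log2 (adjusted p = 0.1728), did not pass this test. None of the 11 member probe sets passed it either. The split by number was made because glucocorticoid targets, a class that includes Dusp1 and Per1, were already seen to differ by it. No group held 4 arrays, so no array was tested for standing apart within its group.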

How the results depend on the processing

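None of the 11 member probe sets was called under any alternative in the comparisons that tested them. Of 644 member values there, 34 had the other sign than reported, none of them called, and the widest was 0.23 log2 after the change. Counts of calls over all kept probe sets moved more. IL-9 against CCL1 called 32, with 19 at a pseudocount of 1 and 18 with no filter. Dex in number 2 called 81, with 44 without the filter, and no-Dex number 1 against 2 called 108, with 65 without the filter and 199 with CCL1 2 added. CCL1 against no ligand called 1, with 3 when CCL1 2 was added. The cause was not tested.

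With 1 array left out, Dex in number 2 called 29 (without unstimulated 2) to 117 (without Dex with IL-9 2), and number 1 against 2 called 46 (without IL-9 1) to 216 (without Dex 2). IL-9 against CCL1 called 14 (without Dex with IL-9 1) to 52 (without Dex 2). IL-9 against no ligand called 5 (without Dex with IL-9 1) to 358 (without Dex 1), and CCL1 against no ligand 1 to 66 (without Dex 1). Dex averaged over ligands and the interaction called 0 in each fit. CCL1 1 could not be left out where CCL1 without Dex would have had no array. The Ptger4 1421073_a_at difference of IL-9 against CCL1 was 1.46 log2 at a pseudocount of 1 and 0.43 log2 at 64.

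With the array number as a replicate block, Dex averaged over ligands called 0, IL-9 against CCL1 41, IL-9 against no ligand 18, CCL1 against no ligand 1 and the interaction 0. The numbers were taken to pair the arrays only if deviations from group means correlated above 0.1 in each of 10 pairs of groups. The range was -0.005 to 0.307, so they were not, but the 4 pairs within a Dex condition gave 0.181, 0.201, 0.237 and 0.307. The matched differences kept 7 probe sets of 1 sign at pseudocounts of 1 and 64, and had 8 under quantile normalization or median centring.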
